A study of Mus musculus with 6 samples.

Results

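The 42 listed genes encode proteins of the neuronal microtubule and growth cone machinery together with their widely expressed relatives: tubulins, microtubule-associated proteins, growth cone proteins of the GAP43 and CRMP families, kinesin motors, and a set of adaptors and adhesion molecules. The list was chosen with earlier results of these data known. Its genes were matched to probes by name, with no threshold on measured values, and 40 of the 42 had a probe on the array, with 83 probes in all. For 27 genes at least 1 probe was bright enough to be tested, 39 probes in total, out of 11388 tested probes for 8635 genes on the array. Of the listed genes, 21 were classed from general knowledge as neuron-restricted, 10 as intermediate and 11 as widely expressed.

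The samples came from E14Tg2a, a line of mouse embryonic stem (ES) cells, 3 of them with the genotype label control and 3 with the genotype label REST KO. Total RNA of each was hybridised to its own array on an Illumina MouseRef-8 v2 chip. The source name of the controls is FloRes and that of the knockout samples FloResCre; the authors' deposited table calls the control group Rest flox, and the study text calls the knockout cells Rest-null. No treatment, time point or passage separates the 2 groups in the labels, and the number of clones behind each group is not given in the sources used here. All arrays lay on 1 chip, controls on the first 3 positions and knockouts on the last 3, so that position and genotype cannot be told apart. Whether replicates came from separate cultures is not labelled, so the p-values rest on a spread between samples that may be technical.

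Microtubules are polymers of alpha and beta tubulin, and neurons assemble them from several tubulin isotypes, stabilise them with associated proteins such as tau and MAP2, and use them as tracks along which kinesins carry cargo into the axon. The growth cone is the motile tip of the growing axon, where GAP43 and the collapsin response mediator proteins (CRMPs, encoded by Crmp1 and the Dpysl genes) connect guidance signals to the cytoskeleton. The repressor REST recognises a DNA element, RE1, near many neuronal genes and holds them low outside neurons. The comparison of knockout with control asks how this machinery differs in ES cells without REST, and the pairing of neuron-restricted genes with widely expressed relatives asks whether members of 1 family moved by unequal amounts.

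Promoter sequences are shown for Crmp1, the gene with the only called probe among the members, and for the relatives Tuba1a with Tuba1b and Kif1a with Kif1b, whose log2 ratios on the arrays did not overlap between genotypes. The ratios of Dpysl4 and Dpysl5 to Dpysl2 did not overlap either, in the opposite sense. They are not shown, as no window was at hand for Dpysl2. Each sequence is the 250 bases before a RefSeq transcription start (build GRCm38.p6), read 5′ to 3′ on the gene's strand. Capitals mark either of the 2 cores of the RE1 element, CAGCACC and GGACAGC, searched on both strands; neither core contains the other. The Crmp1 window is chr5:37241808-37242057 on the plus strand, and the others lie on the minus strand, Tuba1a at chr15:98953502-98953751, Tuba1b at chr15:98934391-98934640, Kif1a at chr1:93101875-93102124 and Kif1b at chr4:149307734-149307983. For Crmp1, Kif1a and Kif1b, RefSeq gives 2 starts each, of which 1 is shown.
Crmp1: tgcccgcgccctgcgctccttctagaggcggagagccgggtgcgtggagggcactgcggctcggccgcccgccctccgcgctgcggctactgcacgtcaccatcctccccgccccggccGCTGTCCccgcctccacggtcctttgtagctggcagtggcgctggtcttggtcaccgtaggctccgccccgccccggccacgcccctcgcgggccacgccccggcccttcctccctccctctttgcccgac
Tuba1a: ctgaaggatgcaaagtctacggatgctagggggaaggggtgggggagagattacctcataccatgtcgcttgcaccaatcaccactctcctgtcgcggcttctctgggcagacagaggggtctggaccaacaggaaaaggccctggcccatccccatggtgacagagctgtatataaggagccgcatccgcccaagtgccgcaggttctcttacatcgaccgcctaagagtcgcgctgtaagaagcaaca
Tuba1b: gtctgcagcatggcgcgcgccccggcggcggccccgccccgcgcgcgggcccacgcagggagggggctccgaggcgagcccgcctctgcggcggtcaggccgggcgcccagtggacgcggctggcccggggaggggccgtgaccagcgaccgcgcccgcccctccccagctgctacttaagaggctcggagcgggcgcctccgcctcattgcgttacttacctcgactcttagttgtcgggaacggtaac
Kif1a: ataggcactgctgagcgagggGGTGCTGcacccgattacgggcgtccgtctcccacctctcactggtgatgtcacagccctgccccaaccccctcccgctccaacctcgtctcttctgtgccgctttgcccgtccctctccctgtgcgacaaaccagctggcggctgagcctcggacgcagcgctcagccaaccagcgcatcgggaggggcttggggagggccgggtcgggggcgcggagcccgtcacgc
Kif1b: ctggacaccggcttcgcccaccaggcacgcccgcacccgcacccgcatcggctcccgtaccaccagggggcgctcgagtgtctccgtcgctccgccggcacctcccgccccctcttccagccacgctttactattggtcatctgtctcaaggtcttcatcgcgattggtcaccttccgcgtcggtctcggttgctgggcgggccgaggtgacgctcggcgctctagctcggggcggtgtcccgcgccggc

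The Crmp1 sequence held GGACAGC on the opposite strand, with its first base 131 bases before the start, and the Kif1a sequence held CAGCACC on the opposite strand, 229 bases before the start. The window of the other Crmp1 start held neither core, and that of the other Kif1a start held CAGCACC. Neither core occurred in these letters upstream of Tuba1a, Tuba1b or Kif1b, nor in the other Kif1b window. The window of Dpysl5, not shown, held neither core. The 2 alpha tubulin promoters differed in composition, with a GC content of 56.8% and 11 CpG dinucleotides for Tuba1a against 75.6% and 35 for Tuba1b. The GC content was 75.6% for Crmp1, 69.2% for Kif1a and 70.0% for Kif1b. RefSeq windows of 300 bases (250 before and 50 after the start) were at hand for 27 of the listed genes, 40 windows in all. CAGCACC occurred in 20% of these windows (8 windows of 7 genes) and in 7.14% of all 32851 mouse windows, and GGACAGC in 12.5% (5 windows of 5 genes) and in 6.56%. Both cores together occurred in 1 member window, that of Tubb3, and in 0.575% of all windows. These are matches of letters in short windows and say nothing on binding; many RE1 elements are known to lie outside promoters.

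Per array, 42.5% to 44.9% of the probes passed detection and a probe was carried by 40.0 to 40.2 beads on average. The probe for Rest was detected on none of the 6 arrays (mean log2 level 5.01 ± 0.09 in control and 4.96 ± 0.11 in REST KO, SD, n = 3), so it does not check the genotype. All 10 ES-cell markers were detected on all arrays, and all 10 had a lower mean in REST KO, with 0 called by limma (smallest adjusted p 0.0714, 3 genes at an unadjusted p under 0.05) and a median log2 difference of -0.64. Their summed level ran from 82538 to 111658 intensity units in control and from 77659 to 91517 in REST KO. Of 11 neuronal markers with a probe, Elavl4, Snap25, Syt1, Nefl and Gad1 were detected on no array and 3 were detected on all arrays. The summed level ran from 1642 to 2443 in control and from 2678 to 2818 in REST KO. All 6 tested neuronal markers had a higher mean in REST KO, with a median log2 difference of 0.67. Of these, 3 had an unadjusted limma p under 0.05, against 20.5% of all tested genes. All 6 were detected on all REST KO arrays, but only 3 on all control arrays. Of the 11 with a probe, 6 were detected on no control array and 5 on no REST KO array. A tested marker was thus undetected in control and passed the filter only through the REST KO arrays, where it is high. The counts and the median of the tested neuronal markers are therefore not a fair test. By limma 1 of the 6, Slc17a6 (a vesicular glutamate transporter), was called higher, against 1.37% of all tested genes called in either direction. Of 9 neural progenitor markers, 6 were detected on no array, among them Pax6 and Sox1, and the summed level ran from 327 to 358 in control and from 380 to 415 in REST KO. The tested progenitor marker, Nes, was detected on no control array and on all REST KO arrays, with log2 levels of 5.27, 5.14 and 5.64 in control and 6.64, 6.14 and 6.31 in REST KO (adjusted limma p 0.0504). Nes passed the filter only through the REST KO arrays, where it is high, so this p-value cannot be read as a fair test. Its control levels lie at background. Of 7 glial markers with a probe, Gfap, Aqp4 and Olig2 were detected on no array, and the summed level ran from 934 to 1127 in control and from 1243 to 1277 in REST KO. The mean log2 level of the glial markers overlapped, from 6.10 to 6.25 in control and from 6.16 to 6.25 in REST KO. Of 8 fibroblast markers, 7 were detected on no array, and the summed level ran from 326 to 343 in control and from 351 to 355 in REST KO. The 1 tested fibroblast marker had a log2 difference of -0.06. All these sums include undetected probes, so background enters them, most of all in the progenitor and fibroblast lists. The part of these marker differences in the results below was not tested, and in bulk RNA a change in the number of cells of a type cannot be told apart from a change in RNA per cell.

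The machinery was only partly detected in these ES cells. The 13 genes with a probe but no tested one include the neuron-specific beta tubulin Tubb3, the doublecortin genes Dcx and Dclk1, which encode microtubule binders of migrating neurons, the stabiliser Map6, and the adhesion molecules L1cam and Ncam1. Tubb2a, Basp1, Nsg2, Tppp and Tppp3, and the widely expressed Map4 and Kif5b, complete that set. Of these 13 genes, 12 were detected on no array, and Basp1 was detected on 1 control array. Their log2 levels on single arrays spanned 4.87 to 6.15, where the lowest level of a detected probe was 5.72 to 5.86 depending on the array. Map4 and Kif5b encode proteins made in most cells, so an undetected probe does not show that the transcript was absent. Map1a has no probe under its name, and Fez1 was not matched, because the probes with the target name FEZ1 carry another symbol in the authors' table.

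By the brightest probe of each gene, 0 of the 27 tested members passed an adjusted p of 0.05 (limma, Benjamini-Hochberg over all tested probes), against 118 of 8635 genes (1.37%) on the whole array. At an unadjusted p under 0.05 there were 11 of 27 (40.7%), against 20.5% of all tested genes. Of 39 tested member probes, 1 was called (2.56%, against 1.27% of all tested probes): the dimmer of the 2 Crmp1 probes, which was higher in REST KO. The mean difference was above 0 for 20 of the 27 genes (74.1%, against 47.7% of all tested genes). In 9 genes (33.3%) all REST KO arrays lay above all control arrays, against 12.9% of all tested genes, and in 0 genes the reverse held, against 13.2%. As the members were chosen with earlier results of these data known, these shares describe the list and test nothing. The median log2 difference was 0.29, with a range from -0.97 to 1.37, where the median of all tested genes was -0.01. Of the 27 genes, 22 were detected on all 6 arrays, while Gap43, Mapt, Kif5a, Ank3 and Tubb4 entered the test with fewer. Gap43 and Ank3, each detected on 1 control array, met the filter through the REST KO arrays, where their means are higher. Their p-values, and their part in the counts above, are not a fair test.

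The neuron-restricted and widely expressed members overlapped in their differences. Of 13 tested neuron-restricted genes, 10 had a mean difference above 0 and 4 had arrays that did not overlap, with a median log2 difference of 0.34. This median was 0.34 over the genes detected on all 6 arrays and 0.09 when all 19 genes with a probe entered without a filter on dim probes. Of 8 tested widely expressed genes, 6 lay above 0 and 3 did not overlap, with a median of 0.06. Of 6 intermediate genes, 4 lay above 0 and 2 did not overlap, with a median of 0.33. Among all tested genes 47.7% lay above 0, and 12.9% were higher in REST KO without overlap, as all these members without overlap were. With all tested probes of a gene averaged, the medians were 0.22 for neuron-restricted and 0.13 for widely expressed genes. Leaving out 1 array moved them between 0.22 and 0.40, the lowest without control replicate 2, and between 0.07 and 0.10, the highest without REST KO replicate 2. Widely expressed genes were among those with the smallest adjusted p, with Tubb6 at 0.0779 and Dpysl2 at 0.0830, and neuron-restricted genes were among those with differences below 0.

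**Figure D1:**
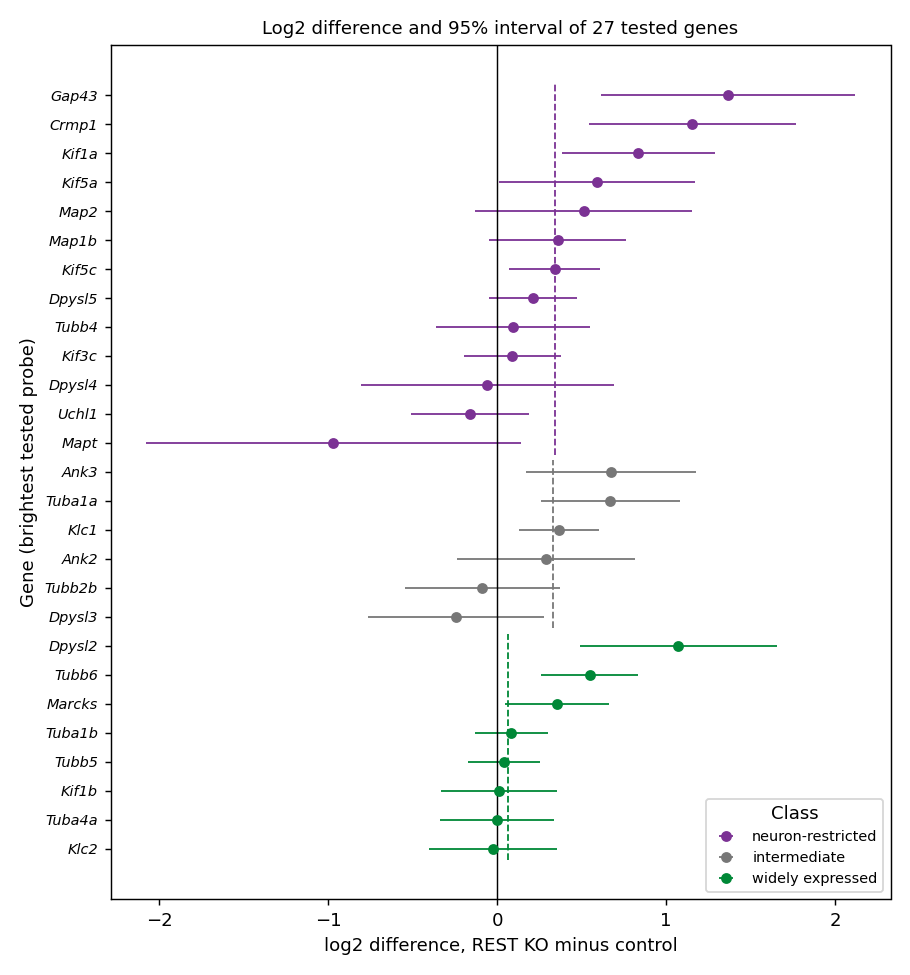
Log2 difference between REST KO and control (x axis) for the brightest tested probe of each of 27 genes (y axis), with its 95% confidence interval from the limma fit (n = 3 arrays per genotype), coloured by class; dashed lines mark class medians. Class medians are 0.34 for neuron-restricted, 0.33 for intermediate and 0.06 for widely expressed genes, and each class holds genes on either side of 0.

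Among the tubulins, the largest differences were those of the alpha tubulin Tuba1a, the main alpha isotype of developing neurons, and of the beta tubulin Tubb6, a minor isotype of non-neuronal tissue, while the intervals of Tuba1b and Tubb5 lay around 0. Levels here and below are background-corrected, quantile-normalised log2 intensities, listed for control replicates 1 to 3 and then for REST KO replicates 1 to 3. Tuba1a (chromosome 15) read 11.07, 11.75 and 11.30 in control and 12.05, 12.11 and 11.96 in REST KO. The knockout arrays lay close together above every control, with control replicate 2 nearest to them. The difference was 0.67 ± 0.18 (SE, n = 3 per genotype), a fold of 1.59, with an adjusted p of 0.102 in the limma fit. Tubb6 (chromosome 18) read 10.32, 10.21 and 10.47 in control and 11.02, 10.90 and 10.72 in REST KO, again without overlap, and its difference of 0.55 ± 0.12 had an adjusted limma p of 0.0779.

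Tuba1b and Tubb5 are the alpha and beta isotypes of most dividing cells. Tuba1b read 15.60, 15.63 and 15.57 in control and 15.74, 15.68 and 15.63 in REST KO, a difference of 0.08 with a 95% interval from -0.13 to 0.30. Tubb5 read 15.41, 15.42 and 15.45 in control and 15.47, 15.50 and 15.43 in REST KO, a difference of 0.04 with an interval from -0.17 to 0.25. In both genes the ranges of the 2 genotypes met or overlapped. Their raw intensities, 47675 to 53417 for Tuba1b and 43850 to 46023 for Tubb5, lay near the brightest probe of each array (56108 to 60440), and whether the arrays still respond evenly at that height was not tested. Tubb2b, a beta isotype of the developing nervous system that ES cells also expressed here, read 14.47, 13.81 and 14.47 in control and 14.08, 14.07 and 14.34 in REST KO. Control replicate 2 lay below all other arrays for this gene. Its difference was -0.09 (interval -0.54 to 0.37), and its 5 tested probes gave differences between -0.14 and 0.02. Tubb4, near background and detected on 2 arrays of each genotype, differed by 0.09, and Tuba4a by less than 0.01 in size (interval -0.34 to 0.33). Tubb3 read 5.06, 5.26 and 4.95 in control and 5.12, 5.02 and 5.16 in REST KO, undetected throughout. Tubulin isotypes have closely similar coding sequences, and cross-hybridisation between their probes was not tested.

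Of the microtubule-associated proteins, 3 of 10 were tested, with 2 differences above 0 and 1 below, and 0 without overlap. These are too few, with intervals too wide, to say whether the group moved. Map2, the dendritic stabiliser, read 7.72, 6.92 and 8.03 in control and 8.07, 7.88 and 8.26 in REST KO, a difference of 0.51 ± 0.27 (adjusted limma p 0.345) that was 0.19 without control replicate 2. Map1b, an early member of the group in growing axons, read 7.71, 8.34 and 8.15 in control and 8.34, 8.57 and 8.37 in REST KO, a difference of 0.36 ± 0.17 (adjusted limma p 0.301) that was 0.18 without control replicate 1. In both genes 1 control array stood below the other controls, replicate 2 for Map2 and replicate 1 for Map1b, and the ranges overlapped. Mapt, which encodes the axonal protein tau, had the lowest difference of all 27 genes. It read 7.62, 5.70 and 7.05 in control and 5.51, 5.61 and 6.34 in REST KO, and control replicate 2 lay among the knockout arrays. Mapt was detected on 2 control arrays and 1 REST KO array, and its difference was -0.97 ± 0.47 (adjusted limma p 0.305), and its 3 other probes were undetected. Map4, the widely expressed relative of Map2 and tau, stayed between 5.16 and 5.72 on its brighter probe and was not detected, so neither pairing with it could be tested.

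The 3 largest differences of the 27 tested members belonged to growth cone genes, Gap43, Crmp1 and Dpysl2, and all were higher in REST KO. Crmp1 (chromosome 5), a CRMP found mainly in the nervous system, read 8.25, 9.12 and 9.28 in control and 10.07, 10.16 and 9.88 in REST KO on its brighter probe. All knockout arrays lay above all controls, and control replicate 1 lay well below the other controls. The difference was 1.16 ± 0.26, a fold of 2.23, with an adjusted limma p of 0.0787. The dimmer Crmp1 probe read 6.43, 6.73 and 6.80 in control and 7.61, 7.64 and 7.33 in REST KO. Its control arrays lay closer together than those of the brighter probe (SD 0.19 against 0.56), and it rose by 0.88 ± 0.14 with an adjusted limma p of 0.0416. This call was lost without control replicate 1 (adjusted p 0.125) and without any 1 of the REST KO arrays (0.236, 0.210 and 0.0792 for replicates 1 to 3), fits in which no probe on the array was called.

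Dpysl2 (chromosome 14) encodes CRMP2, the most widely expressed CRMP, which binds tubulin dimers. It read 9.59, 9.29 and 10.32 in control and 10.83, 10.90 and 10.69 in REST KO. The knockout arrays lay above the controls, with control replicate 3 nearest, and the difference was 1.07 ± 0.25, a fold of 2.10, with an adjusted limma p of 0.0830. The 3 other Dpysl2 probes were detected on no array. The neuron-restricted Dpysl4 and Dpysl5 had smaller differences. Dpysl4 read 8.65, 7.39 and 8.49 in control and 8.08, 7.94 and 8.33 in REST KO, a difference of -0.06 (interval -0.80 to 0.69) with the low value again in control replicate 2. Dpysl5 read 6.61, 6.66 and 6.75 in control and 6.90, 6.74 and 7.02 in REST KO, a difference of 0.21 (interval -0.05 to 0.47) with ranges that just overlapped. Dpysl3, expressed in several embryonic tissues, differed by -0.24 ± 0.22, from -0.08 without control replicate 1 to -0.49 without control replicate 2.

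Gap43 (chromosome 16), a substrate of protein kinase C concentrated on the inner face of the growth cone membrane, had the largest difference of the 27 genes. It read 5.75, 5.26 and 6.64 in control and 7.38, 7.05 and 7.33 in REST KO. It was detected on 1 of 3 control arrays and on all knockout arrays, and control replicate 3 reached part of the way to the knockout level. The difference was 1.37 ± 0.32, a fold of 2.58, with an adjusted limma p of 0.0844. As 2 of the control values lie at background, the fold averages them in. The gene met the filter through the REST KO arrays, where it is high, so this p-value cannot be read as a fair test. Marcks, a widely expressed membrane and actin regulator that is also a substrate of protein kinase C, read 11.01, 11.24 and 11.16 in control and 11.41, 11.72 and 11.35 in REST KO. Its arrays did not overlap either, with a smaller difference of 0.36 ± 0.13 (adjusted limma p 0.199).

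Among the kinesins, 7 of 8 genes were tested, 6 had a difference above 0 (47.7% of all tested genes did), and Kif1a, Kif5c and Klc1 had arrays without overlap. All 3 were higher in REST KO, as were 12.9% of all tested genes without overlap. Kif1a (chromosome 1), the motor of synaptic vesicle precursors, read 5.87, 6.31 and 6.55 in control and 6.93, 7.31 and 7.0 in REST KO, a difference of 0.84 ± 0.19, a fold of 1.78, with an adjusted limma p of 0.0826. It was dim but detected on all arrays, and the difference was 0.45 without background correction. Kif1b, its widely expressed relative and a carrier of mitochondria and vesicles, read 9.85, 9.54 and 9.97 in control and 9.66, 9.76 and 9.98 in REST KO, a difference of 0.01 (interval -0.33 to 0.36). Its 2 other tested probes gave 0.24 and 0.25.

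Kif5c, a neuronal kinesin-1 heavy chain, read 8.18, 8.16 and 8.29 in control and 8.57, 8.70 and 8.39 in REST KO, a difference of 0.34 ± 0.11 (adjusted limma p 0.166). Kif5a, another neuronal heavy chain, read 6.22, 5.59 and 6.45 in control and 6.78, 6.33 and 6.92 in REST KO, with overlap and a difference of 0.59 ± 0.25 (adjusted limma p 0.244), or 0.34 without control replicate 2. The widely expressed heavy chain Kif5b was undetected on both of its probes, with values from 5.03 to 5.29. Klc1, a light chain that links kinesin-1 to cargo and is enriched in neurons, read 8.65, 8.76 and 8.84 in control and 9.07, 9.20 and 9.09 in REST KO, tight within each genotype. Its difference was 0.37 ± 0.10 (adjusted limma p 0.119), while its 2 other tested probes differed by 0.28 and 0.07. The light chain Klc2 read 6.39, 6.31 and 6.40 in control and 6.29, 6.06 and 6.68 in REST KO, a difference of -0.02 (interval -0.40 to 0.35), and Kif3c, a neuronal kinesin-2 subunit, differed by 0.09 ± 0.12.

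Of the adaptors and other genes, 3 were tested. Ank3, which encodes the ankyrin that organises the axon initial segment, read 5.65, 5.67 and 5.96 in control and 6.57, 6.76 and 5.96 in REST KO. REST KO replicate 3 was level with control replicate 3, 1 of 3 control arrays detected the probe, and the difference was 0.67 ± 0.21 (adjusted limma p 0.151). As with Gap43, the probe met the filter through the REST KO arrays, so this p-value cannot be read as a fair test. Ank2, an ankyrin of brain and heart, differed by 0.29 ± 0.22, from 0.14 without control replicate 1 to 0.56 without control replicate 2, and Uchl1, an abundant neuronal ubiquitin hydrolase, by -0.16 ± 0.15.

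**Figure D2:**
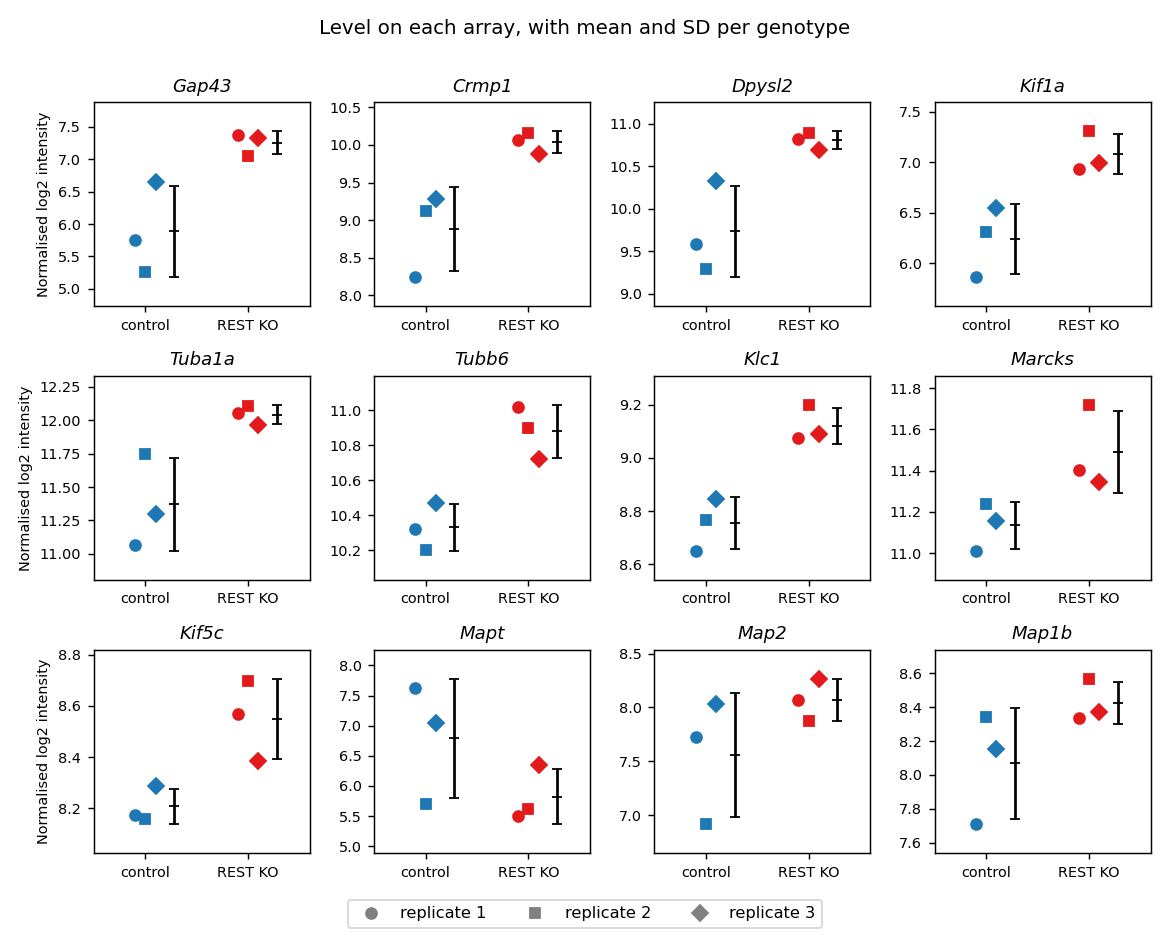
Normalised log2 intensity (y axis, own scale per panel) on each of the 3 control and 3 REST KO arrays for 12 genes, with the mean and SD beside each group and the replicate number as the marker shape. In the first 9 panels, from Gap43 to Kif5c, every REST KO array lies above every control array; Mapt, Map2 and Map1b overlap.

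Whether related genes moved by unequal amounts was tested on the log2 ratio of the 2 genes on each array, for the 8 of 14 listed pairs in which both genes were tested. With 3 arrays against 3, an exact two-sided permutation test cannot go below p = 0.1. The ratio of Tuba1a to Tuba1b differed by 0.59 on the log2 scale between genotypes. Relative to the control mean, it stood at -0.31, 0.35 and -0.04 in control and at 0.54, 0.66 and 0.56 in REST KO, with no overlap (exact permutation p 0.1, adjusted over the 8 pairs 0.2). The ratio of Kif1a to Kif1b differed by 0.82, from -0.44, 0.32 and 0.12 in control to 0.82, 1.09 and 0.57 in REST KO, also without overlap (exact permutation p 0.1, adjusted 0.2). That gap was 0.67 when all tested probes of a gene were averaged, and 0.44 with overlap when no background correction was applied.

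In the CRMP family 2 ratios separated in the opposite sense, with the widely expressed gene above. The ratio of Dpysl4 to Dpysl2 differed by -1.13 and that of Dpysl5 to Dpysl2 by -0.86, each with every knockout array below every control (exact permutation p 0.1, adjusted 0.2 for both). These pairs share the Dpysl2 values. The ratio of Crmp1 to Dpysl2 differed by 0.08 (exact permutation p 0.9, adjusted 0.9), with control arrays spread from -0.49 to 0.68 and knockout arrays from 0.04 to 0.11. The ratio of Gap43 to Marcks differed by 1.01 with overlap (exact permutation p 0.2, adjusted 0.32), that of Klc1 to Klc2 by 0.39 with overlap (0.3, adjusted 0.4, exact permutation) and that of Tubb2b to Tubb5 by -0.13 (0.8, adjusted 0.9, exact permutation). The Gap43 to Marcks gap was 0.41 without background correction, 0.63 with an offset of 50 and 0.66 without control replicate 2, and its arrays separated without control replicate 3 (1.37) or REST KO replicate 2 (1.23). The Klc1 to Klc2 gap was 0.21 without REST KO replicate 2, and its arrays separated without background correction (0.32), with an offset of 50 (0.35) or without REST KO replicate 3 (0.58). Without control replicate 2 the Crmp1 to Dpysl2 gap was 0.43 and the Tubb2b to Tubb5 gap -0.35, each with arrays that separated. None of the 8 pairs passed 0.05, which the exact test over 3 against 3 arrays cannot reach. The 6 other pairs held an untested gene: Tubb3, Map4 or Kif5b in 5 of them, and Tppp with Tppp3, where Tppp read between 5.03 and 5.35 and Tppp3 between 5.25 and 5.50 on the brightest probe.

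**Figure D3:**
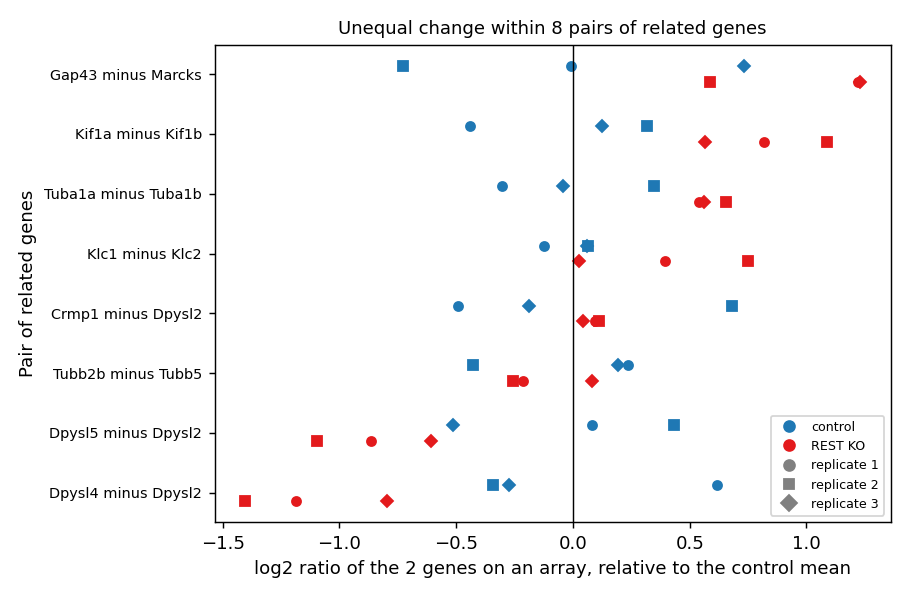
Log2 ratio of 2 related genes on each array (x axis), shifted so that the control mean is 0, for 8 pairs (y axis), with 3 control and 3 REST KO arrays as points and the replicate number as the marker shape. The arrays of the genotypes separate for Kif1a with Kif1b and Tuba1a with Tuba1b (REST KO to the right, differences of 0.82 and 0.59) and for Dpysl4 and Dpysl5 with Dpysl2 (REST KO to the left, -1.13 and -0.86).

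For the members as a whole, the control arrays lay further apart than the knockout arrays. Averaged over the 27 tested members, the log2 level was 8.71, 8.59 and 8.87 in the controls and 9.01, 9.04 and 9.03 in REST KO. Control replicate 2 was also the lowest for the 8 widely expressed members, with 10.67, 10.55 and 10.81 in control and 10.95, 10.94 and 10.93 in REST KO, and for the 13 neuron-restricted members, with 7.36, 7.17 and 7.56 in control and 7.67, 7.70 and 7.73 in REST KO. For the 6 intermediate members replicate 1 was the lowest control, with 9.02, 9.05 and 9.12 in control and 9.33, 9.40 and 9.30 in REST KO. Control replicate 3 was the control nearest the REST KO mean in 15 of the 27 genes, and in 8 of the 10 genes with a difference of 0.5 or more in size. The ES-cell markers had a mean log2 level of 11.65, 11.03 and 11.65 in the controls and from 10.66 to 11.16 in REST KO. Control replicate 2 thus stood low among the controls and within the REST KO range for these markers. It was also the lowest control for Tubb2b, Dpysl4 and Mapt. Without control replicate 2, 8 of the tested members were called, at a background of 14.6% of all tested probes: Tuba1a, Tubb6, Dpysl2, Crmp1, Ank2, Kif1a and Gap43 higher, and Mapt lower by 1.52 with an adjusted limma p of 0.0224. Without control replicate 3, Dpysl2 (1.37, adjusted limma p 0.00869) and Gap43 (1.74, adjusted limma p 0.00954) were called, at a background of 2.29%. Control replicate 3 was the only control array that detected Gap43. In that fit Gap43 thus passed the filter only through the REST KO arrays, where it is high, and its p-value cannot be read as a fair test. Without any other 1 of the arrays 0 members were called, in fits that called 0 probes on the whole array. With all arrays, 3 members (Tubb6, Dpysl2 and Crmp1) were called without background correction, against 2.92% of all tested probes. In that setting the differences of dim genes were smaller, at 0.75 for Gap43, 0.30 for Kif5a, 0.34 for Ank3, 0.16 for Ank2, 0.12 for Dpysl5, 0.53 for the dimmer Crmp1 probe and -0.53 for Mapt. Array weights gave 7 calls against 12.2%, and a trend with robust moderation gave 1, Tubb6, against 3.2%.

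**Figure D4:**
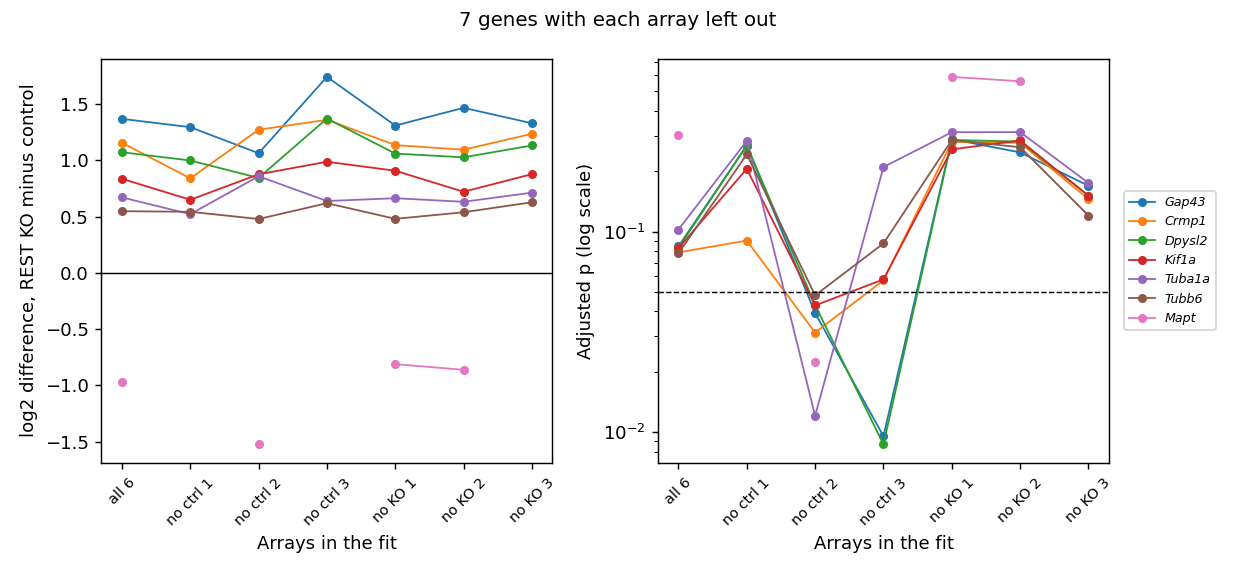
Log2 difference between REST KO and control (left, y axis) and adjusted limma p on a log scale (right, y axis) for 7 genes in the fit of all 6 arrays and with each array left out in turn (x axis); the dashed line marks 0.05. Differences kept their sign in all fits shown, while the adjusted p fell below 0.05 for all 7 genes without control replicate 2 and for Gap43 and Dpysl2 without control replicate 3. In that last fit no remaining control array detected Gap43, so its p-value there is not a fair test. Mapt has no point where too few arrays detected it.

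In the authors' deposited table of differences, 5 of the 83 member probes passed an adjusted p of 0.05, all higher in REST KO and from 4 genes. These were Tubb6 (log2 fold change 0.52, adjusted p 0.0298), Gap43 (0.75, 0.0453), Dpysl2 (0.99, 0.0342) and both probes of Crmp1 (1.01 with 0.0289, and 0.53 with 0.0190), as given by the authors' deposited table. That table counts 448 of 25695 probes past the same threshold, 331 higher and 117 lower. Its values come from the same 6 arrays without background correction and are no independent measurement.

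The wider microtubule and growth cone lists had as many differences above 0 as below. Of 83 further genes in 5 lists, 54 were tested and 0 were called by limma, with 27 differences above 0 and 27 below and a median of 0.0016; 6 had an unadjusted p under 0.05, where 20.5% of all tested genes did. Arrays did not overlap in 13 of the 54 genes with REST KO higher and in 5 with REST KO lower, where the shares of all tested genes were 12.9% and 13.2%. The other tubulins and nucleation factors (6 tested, median -0.04), the tubulin folding and modifying factors (7 tested, 0.06), the plus-end, severing and other associated proteins (15 tested, 0.0040) and the other motors (17 tested, -0.07) all had medians near 0. The 9 tested growth cone and adhesion genes had a median of 0.01, with 4 without overlap, all higher in REST KO. The smallest adjusted p-values of the lists belonged to Map7 and Nrcam. Map7, a microtubule protein of epithelial cells that recruits kinesin-1, read 9.55, 9.15 and 9.33 in control and 8.47, 8.56 and 8.72 in REST KO, a difference of -0.76 ± 0.13 (adjusted limma p 0.0504). Nrcam, an L1-family adhesion molecule of axons, read 5.81, 6.86 and 5.94 in control and 7.81, 7.81 and 7.33 in REST KO, a difference of 1.44 ± 0.29 (adjusted limma p 0.0597). Gprin1, which promotes neurite outgrowth and was singled out after its values were seen, read 6.00, 7.47 and 8.88 in control and 10.54, 10.61 and 10.34 in REST KO. Its difference of 3.05 ± 0.62 was the largest of these lists, and the wide spread of its controls left the adjusted limma p at 0.0643.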

How the data were processed

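Total RNA of 6 ES-cell samples was labelled and read on Illumina bead arrays. The authors deposited the mean intensity per probe and array, made in BeadStudio 3.3.7 without normalisation, per the file headers. They deposited a bead count per probe, which was used only to describe precision. A deposited detection score, headed as a p-value, rises with the signal, so 1 minus it was used as the detection p. The deposited log2 values differed from quantile-normalised log2 intensities by at most 5e-09 and were not tested. The log2 fold changes and p-values of the authors' deposited table, made with limma per the submitters' processing notes, are quoted only where credited to it.

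These intensities were passed through neqc (limma 3.58.1, R 4.3.3): a normal-exponential background model fitted with the detection p, an added offset of 16, quantile normalisation and log2. The offset shrinks the differences of dim probes. A probe was tested if 3 or more of the 6 arrays had a detection p below 0.05. Genotype was fitted with lmFit and eBayes, two-sided, with Benjamini-Hochberg adjustment over all 11388 tested probes and a threshold of 0.05. In fits without an array the same filter was applied to the arrays left. The brightest tested probe stands for a gene. Probes were matched by the authors' symbol, or the target name where that was empty, updated through RefSeq synonyms, which added Map1b, Map2, Map4, Map6 and Tuba4a. Pairs of related genes were compared with exact permutation tests over arrays.

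The members, classes, pairs and lists were chosen with earlier results of these data known. Values on every array are given for members called, without overlap between genotypes, with a log2 difference of at least 1, or in a listed pair, and for the 2 genes of the wider lists with the smallest adjusted p; other members whose values are given were chosen after they were seen. The fit was tested on simulated data. Replicates differed by 2.18 to 10.1 times the bead error in mean square, so none were merged. The number of arrays, 3 per genotype, limits precision. Alternatives changed the background correction, normalisation, offset, filter, weights, moderation, replicate block, probe choice and arrays. The genome build of the deposited tables is not given in the sources used here, so positions are chromosomes only, except for RefSeq promoters.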

Additional observations from a re-analysis of the deposited data

How the results depend on the processing

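Over all probes, 145 were called, against 332 without background correction, 274 with an offset of 50, 50 without a filter on dim probes, 69 with detection required on all 6 arrays, 1386 with array weights, 364 with a trend and robust moderation, and 0 to 1638 without 1 array. Of the members 0 were called by the brightest probe, against 3 without background correction (Tubb6, Dpysl2 and Crmp1), 7 with array weights (Tuba1a, Tubb6, Dpysl2, Crmp1, Kif1a and Gap43 higher, Mapt lower), 1 with a trend and robust moderation (Tubb6), and 0 to 8 without 1 array. The call of the dimmer Crmp1 probe was also lost without a filter (adjusted limma p 0.0611). The median of the neuron-restricted genes was 0.34 and became 0.094 without a filter, where undetected genes enter by construction; cyclic loess, an offset of 50 and the mean over probes left it between 0.22 and 0.36. With the replicate number as a block, 0 probes were called, and the dimmer Crmp1 probe had an adjusted limma p of 0.0913. Deviations of same-numbered replicates correlated at -0.27, 0.34 and 0.36, and 3 of 6 samples correlated best with their own number, so the samples were taken to share only a number. Signs turned for genes near 0: Kif1b was -0.10 with array weights and ran from -0.11 to 0.10 without 1 array, Tubb2b from -0.31 to 0.024, Dpysl4 from -0.45 to 0.18, Klc2 from -0.19 to 0.12, Tubb4 from -0.10 to 0.22 and Tuba4a from -0.13 to 0.088 without 1 array, and Tuba4a was 0.024 with cyclic loess. The number of pairs with REST KO higher and no overlap was 2 and became 2 to 3 without 1 array. The cause of these shifts was not tested. Signal over background limits the rest: 13 genes with a probe had none bright enough to test.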
